A study of Mus musculus with 6 samples.

Results

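Histones are the proteins that package DNA, and the genes described here are the linker and core histone genes of mouse embryonic stem cells in which Chd8 was reduced by a short hairpin RNA. All probes whose platform symbol begins with Hist1h, Hist2h, Hist3h, Hist4h, H1f, H2af or H3f were taken, together with probes of the same genes under their current names. This gave 74 genes of the 19057 on the bead array, measured by 112 of its 45281 probes. Of these, 11 probes of 9 genes belong to linker histones, 83 probes of 54 genes to replication-dependent core histones and 18 probes of 11 genes to replacement histones. Only probes detected (detection p-value under 0.01) on 3 or more of the 6 arrays entered the test, which left 83 histone probes of 59 genes.

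The control group is 3 arrays of embryonic stem cells transfected by electroporation with a control pHYPER plasmid, and the shChd8 group is 3 arrays of such cells given a pHYPER plasmid for a hairpin against Chd8. Both groups were grown with foetal bovine serum and leukemia inhibitory factor on mouse embryonic fibroblasts inactivated with mitomycin C, and both were selected with puromycin from 24 h after electroporation for 48 h before RNA was taken. What the control plasmid carried and the name of the cell line are not given in the sources used here, and the labels name no other hairpin against Chd8 and no rescue. Nothing in the labels says whether each array had a culture of its own, and the p-values here reflect the spread among the arrays, which may be only technical.

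A nucleosome wraps DNA around pairs of the core histones H2A, H2B, H3 and H4, and the linker histone H1 binds where the DNA enters and leaves it. Replication-dependent histone genes lie in clusters, are expressed mainly while DNA is copied in S phase, and give messenger RNAs that mostly end in a stem-loop and lack a poly(A) tail. Replacement histones such as H2A.Z, macroH2A and H3.3 are made throughout the cell cycle from single genes whose messenger RNAs are polyadenylated. H2A.X is grouped with them here. Some clustered genes are known to give polyadenylated transcripts as well, mainly in cells that differentiate or stop dividing. The amplification kit named in the labels copies RNA from its poly(A) tail, so the signal of a replication-dependent gene counts the RNA that the kit could copy and is no measure of all of its transcripts. CHD8 is a chromatin remodeller of the CHD family that is known to bind linker histone H1 and to act with it on promoters bound by p53.

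Promoters of the called genes are shown because the members that changed belong to different histone families whose promoters differ in known elements. RefSeq promoter windows (GRCm38.p6), from 250 bases before to 50 bases after the start of the gene, were matched for 66 of the 74 genes. Capitals mark the TATA box (TATAAA), the CCAAT box and the octamer (ATTTGCAT), each searched on both strands, so that a reverse complement is in capitals too. No motif contains another, and each window is printed 5′ to 3′ on the strand of its gene. The H2bc15 window is at chr13:21753826-21754125 (plus strand), the H2bc6 window at chr13:23585921-23586220 (minus strand), the H4c8 window at chr13:23530794-23531093 (plus strand) and the H2aj window at chr6:136807998-136808297 (plus strand). H2bc6 has another RefSeq entry, at chr13:23621045-23621344, which holds CCAAT boxes and no octamer and is not printed.
H2bc15: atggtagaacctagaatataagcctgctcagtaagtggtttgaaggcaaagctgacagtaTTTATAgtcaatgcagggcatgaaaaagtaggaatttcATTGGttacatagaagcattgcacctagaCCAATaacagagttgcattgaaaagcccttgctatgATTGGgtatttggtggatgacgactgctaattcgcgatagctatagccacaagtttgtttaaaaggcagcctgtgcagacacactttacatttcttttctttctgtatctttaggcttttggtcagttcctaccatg
H2bc6: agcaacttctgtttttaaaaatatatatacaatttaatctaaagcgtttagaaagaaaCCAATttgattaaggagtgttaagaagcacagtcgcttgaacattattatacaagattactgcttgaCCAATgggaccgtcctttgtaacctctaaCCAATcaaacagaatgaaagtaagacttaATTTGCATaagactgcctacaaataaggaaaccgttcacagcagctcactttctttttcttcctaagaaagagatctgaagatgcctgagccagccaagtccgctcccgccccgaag
H4c8: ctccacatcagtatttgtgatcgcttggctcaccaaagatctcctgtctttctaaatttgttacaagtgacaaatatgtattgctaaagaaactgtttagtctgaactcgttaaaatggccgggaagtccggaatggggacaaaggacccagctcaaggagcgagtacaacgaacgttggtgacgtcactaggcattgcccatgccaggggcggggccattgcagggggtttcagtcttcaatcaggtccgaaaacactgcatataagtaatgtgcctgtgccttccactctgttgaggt
H2aj: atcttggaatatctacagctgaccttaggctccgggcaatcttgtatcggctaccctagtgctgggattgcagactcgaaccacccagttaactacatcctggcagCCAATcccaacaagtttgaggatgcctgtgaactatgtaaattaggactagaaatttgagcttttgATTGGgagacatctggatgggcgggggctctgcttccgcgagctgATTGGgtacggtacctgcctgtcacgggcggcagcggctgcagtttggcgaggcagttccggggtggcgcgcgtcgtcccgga

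The H2B windows hold a CCAAT box in 12 of 12 genes, a TATA box in 7 of 12 and the octamer, a known element of H2B promoters, in 7 of 12. The H2A windows hold them in 17, 11 and 7 of 17 genes. Among H4 windows, 3 of 12 hold the CCAAT box, 8 of 12 the TATA box and 0 of 12 the octamer, and the H4c8 window shown holds none of the motifs. H3 windows hold the CCAAT box in 7 of 7 genes, the TATA box in 2 of 7 and the octamer in 0 of 7. Of all 32851 promoter windows, 37.4% hold the CCAAT box, 13.6% the TATA box and 1.74% the octamer. These matches describe letters in a window and are not measured binding sites. They were counted at any position, and the TATA match of H2bc15 lies at -190 relative to its start. Windows of neighbouring H2A and H2B genes can overlap, so their counts may share letters. Of the member genes with a window, 45 lie on chromosome 13 and 8 on chromosome 3.

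Between 16482 and 17440 probes were detected per array, and the correlation across probes was 0.975 to 0.984 among control arrays, 0.982 to 0.987 among shChd8 arrays and 0.954 to 0.977 across the groups. Control and shChd8 arrays took separate stretches of a single slide, and effects of slide position and of group cannot be told apart. The detected Chd8 probe (ILMN_2703082) was lower in all shChd8 arrays, with a log2 level of 8.57 ± 0.19 (SD, n = 3) against 9.96 ± 0.06 (SD, n = 3) and a limma adjusted p of 0.00907. The 8 embryonic stem cell markers were all tested, at a median log2 level of 12.2, and limma called 0 of them, also at an unadjusted p under 0.05. Markers of feeder fibroblasts were higher in shChd8 cells on 20 of 21 tested genes, beside 48.3% of all tested probes. Limma called 3 of the 21 genes higher (Myl9, Fbln2 and Tagln), beside 1.55% of all tested probes. The summed normalized intensity of these 21 genes was 7273 to 12750 per control array and 14921 to 30155 per shChd8 array, while the fibroblast collagens Col3a1 and Col5a2 and the matrix gene Postn had no tested probe. This RNA is from all cells of a dish, so a change in the number of cells of a type and a change in RNA per cell cannot be told apart.

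Between control and shChd8 cells, 5 histone probes passed the test at an adjusted p under 0.05. They are annotated to 5 genes, of which H2bc4 and H2bc6 are near-identical and can share RNA. The replication-dependent genes H4c8, H2bc4, H2bc6 and H2bc15 rose, and H2aj, a replacement variant of H2A, fell. This is 6.02% of the 83 tested histone probes, beside 3.68% of all 16732 tested probes. By direction, 1.55% of all tested probes rose and 2.12% fell. The control and shChd8 arrays did not overlap on 25 histone probes that were higher in shChd8 cells and 7 that were lower, beside 13.8% and 16.4% of all tested probes. The median log2 change was 0.02 for the histone probes and -0.01 for all tested probes.

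The families of histones did not lie together. The median log2 change was 0.67 for H2B, 0.38 for H4, -0.02 for replication-dependent H2A and -0.12 for replication-dependent H3. It was -0.19 for linker histones, -0.13 for replacement variants of H2A and -0.12 for H3.3. The quartiles of all tested probes were -0.25 and 0.25, so the H2B and H4 medians lay above the upper quartile of all probes and the other family medians lay within the quartiles.

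**Figure D1:**
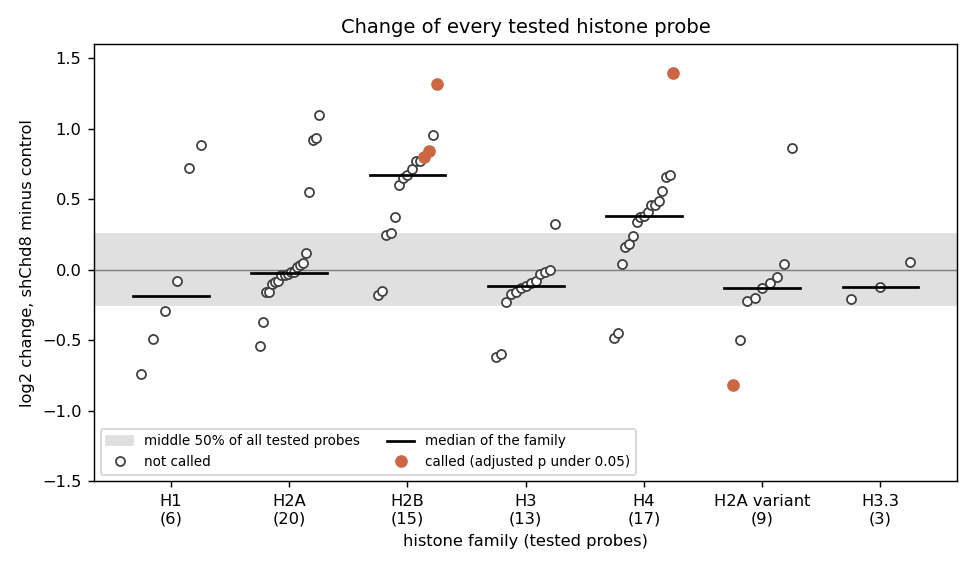
Log2 change of each tested histone probe (vertical axis, shChd8 minus control) by family, with filled points for called probes, open points for the others, a bar at the median of each family and a grey band over the middle 50% of all tested probes. The H2B points centre on 0.67 and the H4 points on 0.38, above the band, while the medians of the other families lie within it.

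H2B was the family with the most called probes, 3 of 15, all higher (20%, beside 1.55% of all tested probes). H2bc4 had log2 levels of 10.10, 9.93 and 9.24 in control and 11.26, 11.13 and 10.83 in shChd8 cells. The groups did not overlap, although the third control array lay below the other two. The log2 change of 1.31 (SE 0.24, n = 3 per group) is a 2.49-fold rise (limma adjusted p = 0.035). The other H2bc4 probe was detected on no array and was not tested. RefSeq holds no promoter entry for this gene in the table used.

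The probe of H2bc6 (ILMN_2742592) was at 10.20, 10.30 and 10.25 in control and 11.22, 11.22 and 10.84 in shChd8 cells. Every shChd8 array was above every control array, and the control arrays lay close together. The log2 change was 0.84 (SE 0.16), a 1.79-fold rise with a limma adjusted p of 0.0366. The other H2bc6 probes differed in the same direction without being called, by 0.67 (adjusted p = 0.0567) and 0.95 (adjusted p = 0.122).

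H2bc15 was at 8.35, 8.38 and 8.39 in control cells and at 9.17, 9.40 and 8.95 in shChd8 cells. Here too the groups were apart. The log2 change was 0.80 (SE 0.16), a 1.74-fold rise with a limma adjusted p of 0.0387.

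Among the 12 H2B probes that were not called, 8 were higher on every shChd8 array than on every control array. H2bc9 was the nearest to the threshold, with a log2 difference of 0.71 (SE 0.17, adjusted p = 0.0558). H2bc7, H2bc11, H2bc12 and H2bc14 differed by 0.77, 0.65, 0.77 on 1 of 2 probes, and 0.60. Their adjusted p-values lay between 0.0617 and 0.107. Over all 15 probes, 13 were above 0 and 11 did not overlap between groups in the upward direction, which is 73.3% of H2B beside 13.8% of all tested probes. The exceptions below 0 were H2bc21 at -0.18 and H2bc3 at -0.15, and both overlapped between the groups.

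Some H2B genes are synonyms of one another in RefSeq, and the probes of such genes are not counted as separate genes here. RefSeq lists H2bc7, H2bc11 and H2bc15 as synonyms of one another, and likewise H2bc4, H2bc6 and H2bc8. The 3 probes of the first set differed by 0.65 to 0.80, and the 5 probes of the other set by 0.38 to 1.31. A rise on such a probe may therefore be that of another member of its set, and the values are uncertain in that respect.

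**Figure D2:**
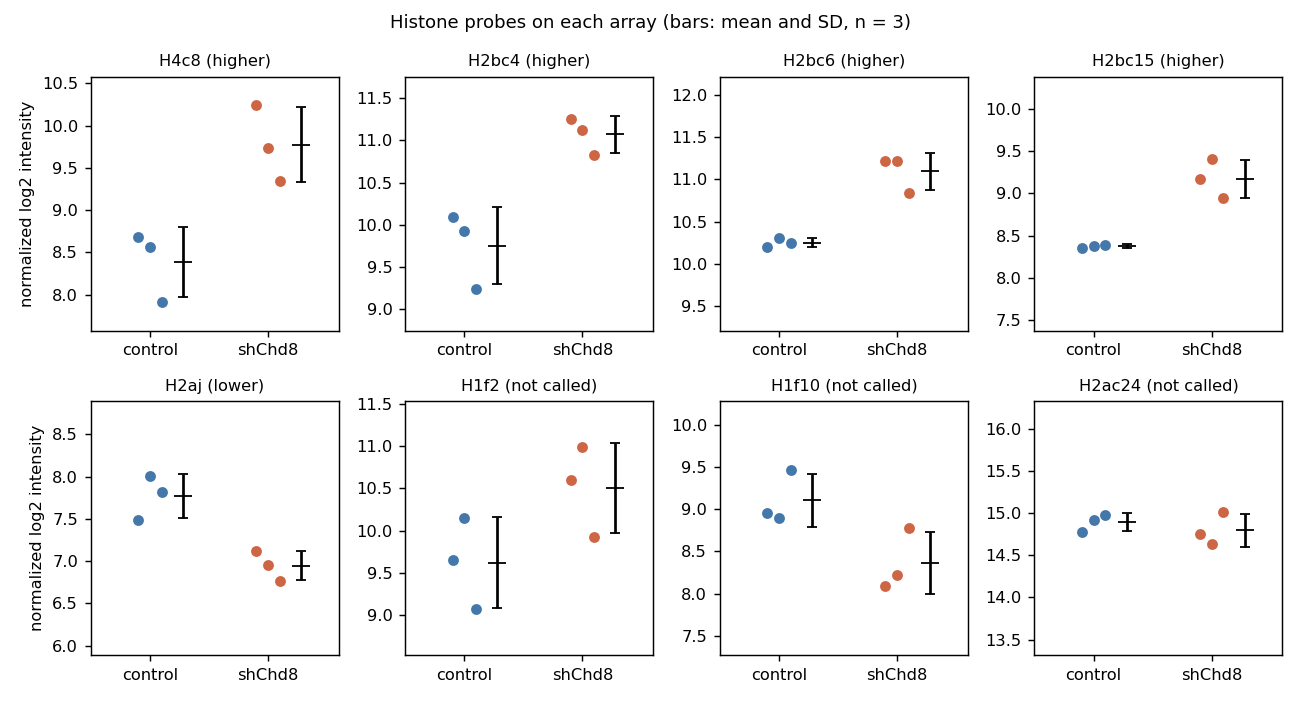
Normalized log2 intensity on each array (points) with the mean and SD of each group (bars, n = 3) for the 5 called histone probes and for 1 probe each of H1f2, H1f10 and H2ac24, on axes of equal span. For the called probes every shChd8 value lies outside the range of the control values, upward for H4c8, H2bc4, H2bc6 and H2bc15 and downward for H2aj. The probes drawn for H1f2 and H2ac24 overlap, and the probe drawn for H1f10 is lower on all shChd8 arrays.

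H4, the core histone with the fewest protein variants, had 1 called probe of 17. This is 5.88% called higher, beside 1.55% of all tested probes. H4c8 was at 8.68, 8.56 and 7.91 in control and 10.24, 9.74 and 9.35 in shChd8 cells. The groups were apart, with the third control array and the third shChd8 array lowest in their groups. The log2 change of 1.39 (SE 0.28) is a 2.63-fold rise with a limma adjusted p of 0.0379. The other H4c8 probe was detected on no array and was not tested.

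Of the 17 H4 probes 15 were above 0, beside 48.3% of all tested probes, and 9 were higher on all shChd8 arrays (52.9%, beside 13.8% of all tested probes). The next H4 probe was that of H4c1, at 9.98, 9.96 and 10.01 in control cells and 10.84, 10.39 and 10.70 in shChd8 cells. Its groups did not overlap, and its log2 difference of 0.66 (SE 0.16) had an adjusted p of 0.0583. Against the rest, a dim probe of H4f16, detected on 3 control arrays and 1 shChd8 array, was at -0.49 on the log2 scale (adjusted p = 0.15), its other probe was not tested, and 1 of 2 probes of H4c2 was at -0.45 with overlap. RefSeq lists 11 H4 genes as synonyms of one another and also gives them as synonyms of H4c17 and H4c18. All tested H4 probes belong to 12 of these 13 genes.

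Replication-dependent H2A held the brightest histone probes of the array. H2ac24 was at 14.77, 14.92 and 14.98 in control and 14.75, 14.63 and 15.01 in shChd8 cells. These ranges overlap, and the log2 difference was -0.09 with a 95% interval from -0.46 to 0.27. Likewise bright were probes of H2ac10, H2ac20, H2ac7 and H2ac13, with differences from -0.16 to -0.03 on their brighter probes. In all, 12 H2A probes of 8 genes had a mean log2 level above 12, which is brighter than at least 97.8% of tested probes. Their differences lay between -0.16 and 0.12, none was without overlap, and the adjusted p-values lay between 0.574 and 0.963.

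The dimmer H2A probes spread more. H2ac18 was at 8.12, 8.73 and 7.76 in control and 9.67, 9.32 and 8.92 in shChd8 cells on its brighter probe. The groups were apart and the log2 difference was 1.10 (SE 0.28), but limma did not call it (adjusted p = 0.0624). Its other probe differed by 0.93 (adjusted p = 0.0764) and that of H2ac19, known as a near-identical copy of it, by 0.92 (adjusted p = 0.0788), again without overlap. H2ac8 was lower without overlap at -0.54 and H2ac11 lower with overlap at -0.37. Limma called 0 of the 20 H2A probes, and 4 had an unadjusted p under 0.05, all higher, beside 12.9% of all tested probes.

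No H3 probe passed the test. Of 13 probes 12 were below 0, beside 51.7% of all tested probes, and limma called 0, with 2 lower at p under 0.05 before adjustment, beside 12.8% of all tested probes. The lowest p was that of 1 probe of H3c10, at 6.62, 6.56 and 6.88 in control and 6.12, 6.06 and 6.08 in shChd8 cells. This probe did not overlap between the groups and differed by -0.60 (SE 0.15, adjusted p = 0.0606), whereas the other H3c10 probes differed by -0.13 and -0.17 with overlap. The H3c3 probe differed most, by -0.62 (SE 0.25, adjusted p = 0.171), with overlap through the shChd8 array at 6.92. The H3 genes fall into 2 sets of RefSeq synonyms, so a value on 1 of the 13 probes may be that of another gene of its set. Probe sequences were not compared.

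**Figure D3:**
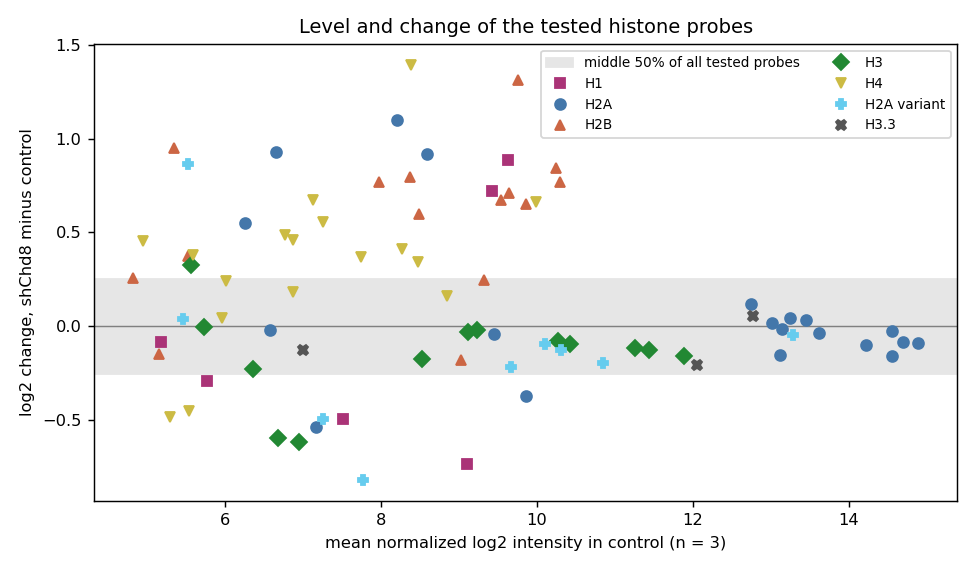
Log2 change of each tested histone probe (vertical axis, shChd8 minus control) against its mean normalized log2 intensity in control cells (horizontal axis, n = 3), with a colour and symbol per family and a grey band over the middle 50% of all tested probes. The 12 H2A probes above a level of 12 lie between -0.16 and 0.12, and the called H2B and H4 probes lie at middle levels.

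Several H2A and H2B genes stand head to head and share the stretch between their starts. The starts lay less than 1000 bases apart on opposite strands in 6 pairs, of which 5 had tested probes on both sides. H2ac15 differed by 0.04 and H2bc15 by 0.80, with 164 bases between their starts, so that the H2bc15 window printed above also covers the start of H2ac15. H2ac7 differed by -0.09 and H2bc7 by 0.77 (174 bases), and H2ac12 by -0.02 and H2bc12 by 0.51 (178 bases, means of 2 probes for each). The change of the H2B gene was the higher in 5 of 5 pairs, with H2ac11 at -0.37 beside H2bc11 at 0.65 and H2ac8 at -0.54 beside H2bc8 at 0.38. Every H2A gene of these pairs lay below every H2B gene, so any other pairing of them gives the same count. The count thus repeats the difference between the families. The H2bc8 probe was dim and overlapped between the groups. The difference within pairs was not tested, since H2bc7, H2bc11 and H2bc15 are near-identical and their probes can share RNA.

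**Figure D4:**
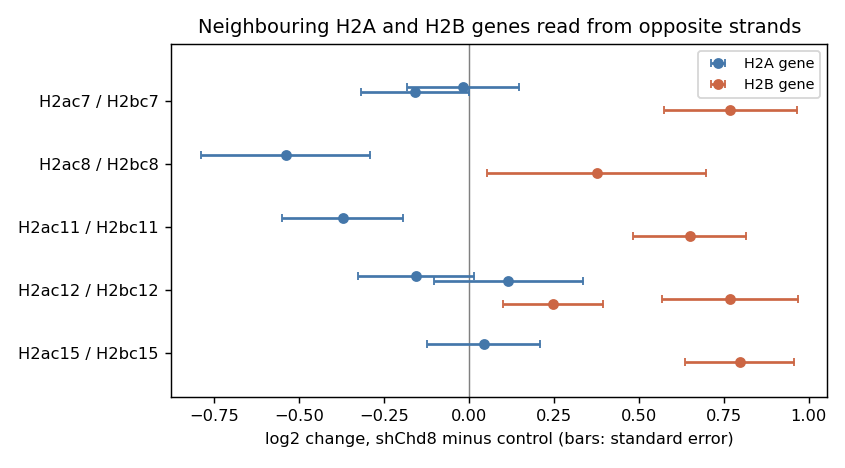
Log2 change (horizontal axis, shChd8 minus control; bars are standard errors from the fit) of each tested probe of the H2A gene and of the H2B gene in the 5 divergent pairs with tested probes on both sides. In each pair the H2B points lie to the right of the H2A points, and the same holds between pairs.

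None of the linker histones passed the test. H1f2, a main linker histone of somatic cells, was at 9.54, 9.59 and 9.15 in control and 10.33, 10.50 and 9.62 in shChd8 cells on 1 of its probes. Every shChd8 array was above every control array, with a log2 difference of 0.72 (SE 0.25, adjusted p = 0.119). Its other probe, at 9.65, 10.15 and 9.07 against 10.60, 10.99 and 9.93, overlapped between the groups and differed by 0.88 (SE 0.33, adjusted p = 0.142).

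H1f10, a linker histone variant encoded outside the clusters, went the other way. It was at 8.95, 8.90 and 9.46 in control and 8.09, 8.22 and 8.78 in shChd8 cells. The groups did not overlap, and the log2 difference of -0.74 (SE 0.23) had an adjusted p of 0.1. Its other probe overlapped at -0.49 (adjusted p = 0.301).

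The other tested linker genes were H1f5 at -0.29 (adjusted p = 0.463) and H1f1 at -0.08 (adjusted p = 0.9), both clustered genes close to background. Limma thus called 0 of 6 linker probes, and at an unadjusted p under 0.05 there were 2 higher and 1 lower, beside 12.9% higher and 12.8% lower of all tested probes. The clustered genes H1f3 and H1f4 and the germ cell genes H1f6, H1f7 and H1f8 had no tested probe.

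Among replacement histones, H2aj was the only called member, on 1 of 2 tested probes. This is 1 of 12 tested replacement probes called lower (8.33%), beside 2.12% of all tested probes. In human fibroblasts the H2A.J protein is known to accumulate with senescence. The called probe was at 7.49, 8.01 and 7.82 in control and 7.12, 6.95 and 6.77 in shChd8 cells. The groups were apart, and the log2 change of -0.82 (SE 0.18) is a fall to 56.6% of control, with a limma adjusted p of 0.0492. The other tested probe, at -0.50, was also lower on all shChd8 arrays but was not called (adjusted p = 0.137). A further H2aj probe was detected on no array.

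The abundant replacement histones differed little. H2az1, which encodes the H2A.Z found at promoters, was at 13.29, 13.37 and 13.20 in control and 13.13, 13.17 and 13.41 in shChd8 cells. The ranges overlap, and the difference of -0.05 had a 95% interval from -0.39 to 0.29. H2az2 differed by -0.10, and H2ax, whose protein is phosphorylated at DNA breaks, by -0.20 with an interval from -0.67 to 0.27.

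The H3.3 genes encode the replacement form of H3, which is made throughout the cell cycle. H3f3b differed by 0.06 (95% interval -0.26 to 0.38). H3f3a was lower without overlap at -0.21 on its brighter probe, with an adjusted p of 0.371, and at -0.12 with overlap on the other. Macroh2a1, a variant with a large extra domain known from the inactive X chromosome, disagreed between its probes, at -0.13 and -0.22 on the brighter pair and 0.86 (adjusted p = 0.106) on a dim one. Macroh2a2 was at 0.04, while H2ab2, H2al2a and Macroh2a3 had no tested probe.

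Probes of 1 gene did not always move together. Of 20 histone genes with several tested probes, 6 had probes of opposite sign. They were H2ac10, H2ac12, H2ac20, H3c14, H4c2 and Macroh2a1. H2ac20 differed by -0.03 on a bright probe and by 0.55 on a dim one. Of the 29 untested probes, 26 were detected on no array and 3 on 1 or 2 arrays.

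Genes that make and process histone transcripts were measured on the same arrays. Of 20 genes for histone transcription and 3′ end processing 15 were tested, and 1 fell while 0 rose, beside 2.12% and 1.55% of all tested probes. Eri1, the exonuclease that trims and degrades histone messenger RNA, was at 5.71, 5.62 and 5.81 in control and 4.96, 4.88 and 5.00 in shChd8 cells. It was detected on all control arrays and on 1 shChd8 array, with a log2 change of -0.77 (SE 0.14, limma adjusted p = 0.0347). The probe thus entered the test through the control arrays, and its shChd8 values lie near background, so the size of the change is uncertain. The cap-binding subunit Ncbp1 differed by -0.53 (adjusted p = 0.0661), the cleavage factor Cstf2 by -0.52 (adjusted p = 0.104) and Zfp473, a zinc-finger protein of the histone 3′ end complex, by -0.43 (adjusted p = 0.122). The median of this list was -0.21, with 12 of 15 genes below 0, beside 51.7% of all tested probes. Slbp, the stem-loop binding protein, and Npat, the coactivator of histone gene transcription, had no tested probe.

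For histone chaperones and deposition factors, 24 of 31 genes were tested and limma called 0, with 1 higher and 3 lower at p under 0.05 before adjustment, beside 12.9% and 12.8% of all tested probes. The H1 and H3-H4 chaperone Nasp differed by -0.47 (adjusted p = 0.104), the H2A.Z chaperone Anp32e by -0.48 (adjusted p = 0.105) and the H3.3 chaperone Hira by 0.37 (adjusted p = 0.142). The list's median was -0.06.

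Genes of DNA replication in S phase were 23 of 25 tested, with a median of -0.15. Tk1, the thymidine kinase of S phase, fell, from 9.98, 9.92 and 10.07 in control to 8.63, 8.86 and 9.11 in shChd8 cells. This is a log2 change of -1.12 (SE 0.17, limma adjusted p = 0.0213), although its other probe, at -0.58, was not called (adjusted p = 0.162). No other gene of the list was called, so that 1 of 23 fell (4.35%), beside 2.12% of all tested probes. Of the 23 genes 17 were below 0, beside 51.7% of all tested probes. At a limma p under 0.05 before adjustment 1 was higher and 2 were lower, beside 12.9% and 12.8% of all tested probes. The helicase subunit Mcm7 differed by 0.49 (adjusted p = 0.157), and the ribonucleotide reductase subunits Rrm1 and Rrm2 by -0.39 (adjusted p = 0.162) and 0.32 (adjusted p = 0.199).

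Array by array, the H2B probes lay at medians of -0.38, -0.18 and -0.44 around their own means in control and at 0.42, 0.38 and 0.17 in shChd8 cells. H4 probes lay at -0.25, -0.13 and -0.13 and at 0.13, 0.10 and 0.25. Both families were thus lower on every control array than on every shChd8 array, while H2A and H3 probes overlapped.

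The feeder markers were likewise lower on the control arrays, with medians of -0.17, -0.36 and -0.85 in control and 0.90, 0.50 and 0.16 in shChd8 cells. On the shChd8 arrays the H2B medians had the same order as the feeder medians, and control replicate 3 was lowest in both. The other control arrays were in the reverse order. H4 medians did not follow the feeder order. The shChd8 array with the highest H4 median had the lowest feeder median. The control array with the lowest H4 median had the highest feeder median. Among the probes called higher, those of H4c8 and H2bc4 lay in the feeder order within both groups. Those of H2bc6 and H2bc15 did not. S-phase genes lay at 0.06, 0.05 and 0.07 in control and at -0.19, -0.15 and 0.12 in shChd8 cells. With the feeder markers' median added as a covariate, the median change was 0.33 for H2B and 0.26 for H4, and limma called 0 of the 83 histone probes, with 1 higher and 1 lower at p under 0.05 before adjustment. In that fit H4c8 was at 0.23, H2bc4 at 0.41, H2bc6 at 0.60, H2bc15 at 0.68 and H2aj at -0.93, with adjusted p-values from 0.657 to 0.883. The fit also called 0 of all 16732 probes, of which 1261 had an unadjusted p under 0.05. The feeder medians themselves separated the groups on every array, so this fit can hardly tell group and feeder markers apart. The part of feeder cells in the H2B, H4 and H1f2 values was not tested.

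**Figure D5:**
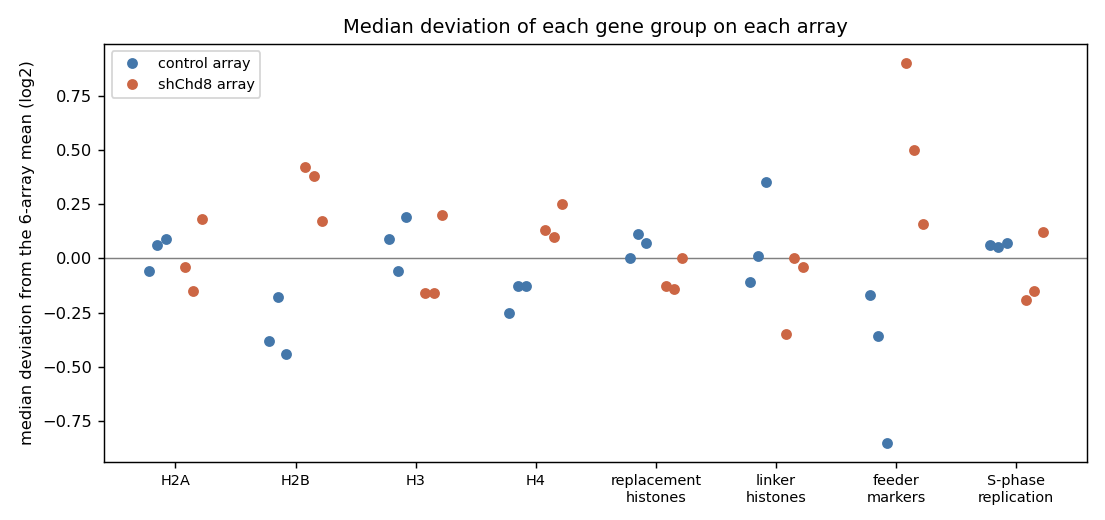
Median deviation of the tested probes of each histone family and of 2 gene lists from their 6-array means (log2, vertical axis), with 1 point per array. The H2B, H4 and feeder marker medians lie below 0 on the control arrays and above 0 on the shChd8 arrays.

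The calls rest on few arrays. For each called probe an exact permutation test (two-sided) gave p = 0.1, the smallest that 3 arrays against 3 allow. Without control replicate 1, control replicate 3, shChd8 replicate 1 or shChd8 replicate 2, limma called 0 histone probes, with 18 to 21 higher and 4 to 5 lower at p under 0.05 before adjustment, where 18.3% to 21.5% of all tested probes reached it in either direction. By contrast, 9 were called without control replicate 2 and 5 without shChd8 replicate 3. With scaling of the arrays to 1 median in place of quantile normalization, which put the median of all tested probes at 0.18, 23 histone probes were called higher and H2aj was not called (adjusted p = 0.0615). The H2A and H3 medians then turned to 0.07 and 0.06, both below the shift of all probes.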

How the data were processed

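The deposited non-normalized table holds, per the file headers, a linear intensity and a detection p-value for every probe on every array. The submitters' processing notes name GenomeStudio without a version. The deposited normalized table, also in intensity, had the values that quantile normalization without background subtraction gives, and served as an alternative.

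Intensity was background corrected and quantile normalized with neqc of limma 3.58.1 in R 4.3.3 (negative controls inferred from detection p-values, offset 16), giving log2 levels. The 16732 probes with a detection p-value under 0.01 on at least 3 of 6 arrays entered lmFit and eBayes with group as the single term, two-sided, with Benjamini-Hochberg adjustment over all of them, and called at an adjusted p under 0.05. "Higher" or "lower" without overlap means that all arrays of one group lay outside the other's range. The number of arrays limits the precision. The fit was tested on simulated data. Symbols were updated through RefSeq gene identifiers (GRCm38.p6), which matched all 112 histone probes. The platform annotation gave 34885 probes 1 symbol, 18 several and 10378 none.

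Named members are all called histone probes, all tested linker and replacement probes, and of replication-dependent core probes the 6 brightest and the 6 with the lowest p. Of each list the called genes and up to 3 further genes with the lowest p are named, on the brightest probe of a gene. Other core members that the text names were chosen after their values were seen. Members and lists were chosen with earlier results of these data known. Replicate numbers are names in accession order and pair no arrays. Alternatives changed the background correction, offset, normalization, filter and variance model, added the feeder markers as a covariate, or left out 1 array.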

Additional observations from a re-analysis of the deposited data

How the results depend on the processing

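In 85 refits of the 5 called probes under 17 alternatives none changed sign, and the call was kept in 44. The kept sign says little. Refits that changed only the filter or the variance model left the log2 change as it was. The groups did not overlap on these probes, so leaving out 1 array could hardly reverse the sign. H2bc4, H2bc6 and H4c8 kept it in 10 of 17, H2bc15 in 8 and H2aj in 6. The log2 change ranged from 0.41 to 1.51 for H2bc4, 0.60 to 1.02 for H2bc6, 0.23 to 1.62 for H4c8, 0.66 to 1.03 for H2bc15 and -0.96 to -0.53 for H2aj. Of the 25 named probes that were not called, 23 of 423 refits gave a call and 35 changed sign.

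Limma called 5 histone probes and 615 probes in all in the reported setting. The counts were 12 and 1042 with normexp without negative controls, 17 and 1728 without background correction, 16 and 1548 with an offset of 50, 23 and 1802 with median scaling, and 17 and 1731 with the deposited normalized values. They were 2 and 272 with detection on at least 1 array, 14 and 1049 with detection on 6 arrays, 1 and 311 without a filter, and 17 and 1715 with an intensity trend. They were 0 and 17 with an unmoderated test, where 21 histone probes were higher and 3 lower at p under 0.05 before adjustment (20.9% of all probes), and 0 and 0 with the feeder marker covariate, where 1 was higher and 1 lower (7.5% of all probes). Leaving out 1 array gave 0 to 9 histone probes and 13 to 818 probes in all. By direction, median scaling called 23 histone probes higher and 0 lower, and 1590 of all probes higher and 212 lower, against 260 and 355.

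The linker median of -0.19 became 0.11 with detection on 6 arrays and 0.063 with the feeder covariate, and lay between -0.37 and 0.047 when 1 array was left out, the highest without shChd8 replicate 1. The replacement median of -0.13 became 0.039 with median scaling and -0.050 with the feeder covariate (left-out arrays -0.19 to -0.10). The core median of 0.12 became 0.25 and 0.23 (left-out arrays 0.07 to 0.16). The H2B median was 0.88 and the H4 median 0.58 with median scaling. Where a filter was changed, the number of probes tested changed with it, and otherwise the cause was not tested. No paired analysis was possible because the labels give no replicate numbers. Probes near background, such as those of H1f1, H1f5 and Macroh2a2, are limited by their signal.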

Other observations

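The tested probes of other genes most like each called histone probe were ranked by Pearson correlation over the 6 arrays. The points share 2 groups, so any probe with a similar group difference ranks high among 16732, and the correlations are a description. H4c8 was most like Syap1, Cbfb, Fbln2, Mon2 and Rtl8a, with r from 0.995 to 0.997, and Fbln2, an extracellular matrix protein, is one of the feeder markers called higher. H2bc4 was most like Rragc, Sox11, Fam174c, Tmem43 and Trp53inp1 (0.995 to 0.998), of which Sox11 is a neural transcription factor and Trp53inp1 a known p53 target. Trp53inp1 rose by 0.89 on the log2 scale (limma adjusted p = 0.0435), and the others were not called (limma adjusted p from 0.0558 to 0.0825). A probe picked for its likeness to a called probe shares its group difference, so this rise is no separate result. H2bc6 was most like Mmab, Gprc5b, Uggt2, Rhoc and Prkca (0.995 to 0.998), and H2bc15 was most like Ostf1, Chic2, Efna5, Nucb1 and Asb8 (0.993 to 0.996). H2aj was most like Acaa2, Trub1, Rpl29, Tnfrsf25 and Zc3hc1 (0.994 to 0.998).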
